A study of Mus musculus with 12 samples.

Results

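The 9 genes described here are Il4, Il5, Il13, Il9, Il3, Il6, Il2, Il10 and Csf2, chosen by name as the type 2 cytokine genes and the cytokine genes linked to them, out of 29542 genes to which the transcripts were summed. All 9 were listed in each of the 12 libraries, and 7 passed the filter on low counts; Il9 and Il3 did not. The libraries came from group 2 innate lymphoid cells (ILC2s), which are lymphocytes that act without antigen receptors. They had been sorted out of the skin-draining lymph nodes of C57BL6 mixed marrow chimeras. The 4 groups of 3 libraries were Rag1 knockout-labelled cells (CD90.2) at 20 weeks, WT cells (CD90.1) at 20 weeks, knockout-labelled cells at 8 weeks and WT cells at 8 weeks after transplant. Every recipient was a CD45.1 congenic mouse that received 950 cGy, followed by equal parts of Rag1-/- marrow (CD45.2) and WT marrow (CD90.1), so both genotypes developed in irradiated hosts that also held WT lymphocytes. Every recipient also received IL-33, the alarmin that expands ILC2s, given daily for 7 days as 30 ng per cheek plus 240 ng intraperitoneally. All levels below are therefore levels under IL-33, with no library from untreated mice. The series description gives 12 weeks for the later time, whereas the labels of the samples give 20, which is the value taken here.

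Type 2 cytokines are the signals by which ILC2s and T helper 2 cells act on eosinophils, mast cells, B cells and epithelium. In the mouse, Il4, Il13 and Il5 lie together on chromosome 11 around Rad50, whose last part holds the locus control region known from T helper 2 cells, with Csf2 and Il3 farther along the same chromosome. GATA-3, NFAT and AP-1 factors are known to act on this locus. In ILC2s, IL-5 and IL-13 are the best known products, released after signals such as IL-33.

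The libraries held 11433625 to 32529806 estimated reads. Among ILC2 markers, Gata3 lay between 554 and 1357 CPM (counts scaled to a fixed library total, with TMM factors) and Il1rl1, the IL-33 receptor gene, between 167 and 336 CPM. Rag1 had 0 estimated reads in the 6 WT libraries and 10.8 to 18.4 in 5 of the 6 knockout-labelled libraries, at most 0.995 CPM. That direction is not the one the labels would give, so the term knockout-labelled is used throughout. Whether these reads came from the knockout allele was not tested. Thy1, the gene of CD90, lay at 16.8 to 37.8 CPM in the knockout-labelled and 2.94 to 5.68 CPM in the WT libraries, so the labelled groups did not overlap. Knockout-labelled replicate 3 of 8 weeks stood apart on the second principal component, and WT replicate 2 of 8 weeks on the first. Separate animals are not stated for the replicates, and p-values therefore measure only the spread between these libraries, which may be technical. In such bulk samples, fewer cells of a type and less RNA per cell cannot be told apart. Markers of mast cells and basophils summed to 9.34 to 22.3 CPM: Tpsab1 and Cma1 had 0 reads in all 12 libraries, Mcpt8 reached 1.79 CPM, and Cpa3, which was detected in every library, lay between 7.24 and 20.9 CPM. Among eosinophil markers, Epx had 0 reads in all 12 libraries, and Ccr3, which was detected in every library, lay between 8.5 and 17.9 CPM. Among T cell markers, Cd3e lay between 0 and 3.76 CPM and Cd4 between 0.0995 and 1.59 CPM. Cd3g lay higher, between 24.5 and 66.05 CPM, and the receptor constant genes Trbc1 and Trbc2 between 229 and 510.0 CPM.

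By transcript abundance within a library, Il5 led the 9 genes in all 12 libraries. Il5 encodes the growth factor of eosinophils and spans chromosome 11, 53720794 to 53725106 (GRCm38, plus strand). It lay between 90.3 and 170.9 TPM (transcript abundance per length, scaled to a fixed sum), with a median of 133 TPM. Il5 made up 38.8% to 52.6% of the summed TPM of the 9 genes, with a median of 45.1%.

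Csf2 encodes granulocyte-macrophage colony-stimulating factor and spans chromosome 11, 54247271 to 54249667 (minus strand). Its level lay between 19.8 and 92.7 TPM, with a median of 53.6 TPM. Il4 encodes the cytokine of IgE class switching and T helper 2 differentiation and spans chromosome 11, 53602982 to 53618669 (minus strand). It lay between 23.3 and 66.2 TPM, with a median of 53.0 TPM. Csf2 and Il4 could not be ordered: Csf2 was the higher of the pair in 5 of 12 libraries.

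Il6 encodes a pleiotropic inflammatory cytokine on chromosome 5, 30013114 to 30019981 (plus strand), and lay between 15.3 and 48.0 TPM. Il13, the gene for the cytokine of mucus production and tissue repair, spans chromosome 11, 53631324 to 53634702 (minus strand), and lay between 8.0 and 35.0 TPM. In each library Il13 was below Il5, Il4 and Il6. The median Il5 to Il13 ratio of TPM within a library was 9.95, and it ranged from 3.82 to 16.7.

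The last 4 genes were low or not detected. Il2, the gene of the T cell growth factor, spans chromosome 3, 37120523 to 37125959, and lay between 0.249 and 4.18 TPM, from 2.96 to 63.9 estimated reads. Il10 encodes an anti-inflammatory cytokine on chromosome 1, 131019845 to 131024974, and lay between 0.277 and 3.47 TPM, from 5.78 to 106 estimated reads. Il9, the gene of a mast cell growth factor that ILC2s are also known to make, spans chromosome 13, 56479277 to 56482246. Il3, the gene of a basophil and mast cell growth factor, lies 15635 bases from Csf2 on chromosome 11, 54265303 to 54267277. Il9 and Il3 had 0 estimated reads in all 12 libraries, and a floor of 3 counts allows up to 0.0922 to 0.262 CPM in a library, counting error only.

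The order of mean log2(TPM + 0.1) over libraries was Il5, Csf2, Il4, Il6, Il13, Il2, Il10, then Il9 and Il3. Neighbours were compared by a two-sided exact sign-flip permutation test within libraries, adjusted over all 8 pairs. The 2 pairs that hold Il9 are no test, since Il9 and Il3 are at 0 throughout and Il10 had reads in every library. Of the other 6 pairs, 4 differed. Il5 exceeded Csf2 by 1.35 ± 0.43 log2 units of TPM (SD, n = 12; 12 of 12 libraries; adjusted exact p = 0.000781). Il4 exceeded Il6 by 0.57 ± 0.20 log2 units in 12 of 12 libraries, with the same adjusted exact p of 0.000781. This order rests on division by length, as the Il4 transcripts have 530 to 605 bases and that of Il6 has 1087. It also rests on the sum of 4 Il4 transcripts, described below. Il4-201, the one with the annotated full coding sequence, had 0 to 2.20 TPM, below Il6 and Il13 in every library. By CPM, Il6 lay above Il4 in every library but WT replicate 1 of 20 weeks. Il6 exceeded Il13 by 1.31 ± 0.74 log2 units in 12 of 12 libraries (adjusted exact p = 0.000781). Il13 exceeded Il2 by 3.21 ± 1.35 log2 units in 12 of 12 libraries (adjusted exact p = 0.000781). The unadjusted p of these 4 pairs, 0.000488, is the smallest that 12 libraries can give. It measures how constant a difference is across libraries, and a bias of length or read assignment shared by all libraries is not measured. Csf2 and Il4 differed by 0.01 ± 0.52 log2 units (adjusted exact p = 1), and Il2 and Il10 by 0.30 ± 1.73 log2 units (8 of 12 libraries; adjusted exact p = 0.735), neither beyond the spread between libraries.

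**Figure D1:**
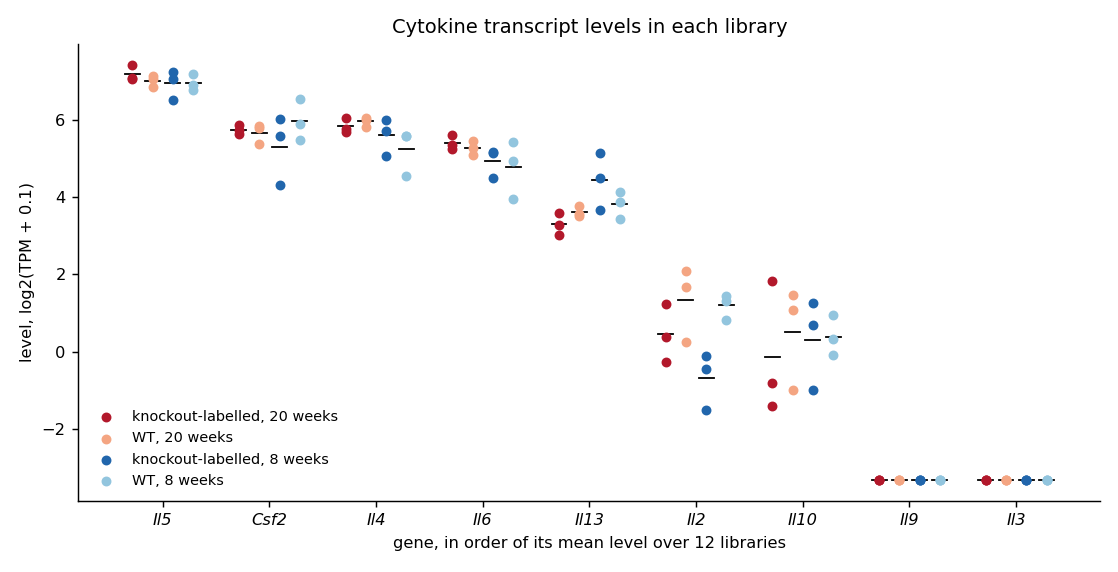
Levels of the 9 cytokine genes as log2(TPM + 0.1) in each library, genes in order of their mean; points are libraries, short bars are means of the 3 libraries of a group. Il5 sits on top in all 12 libraries, and Il9 and Il3 sit at the value that 0 TPM takes on this scale.

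The Il4 reads were assigned almost wholly to transcripts that begin at an exon inside the gene. The files list 4 Il4 transcripts, all on the minus strand. Il4-201, the transcript with the annotated full coding sequence, begins at 53618669 with an exon that holds its start codon. Il4-204 begins 1331 bases farther along the gene, at 53617338, and Il4-202 begins within the same exon, at 53617224. Il4-204 had 99.8 to 671 estimated reads in a library and Il4-202, annotated as a processed transcript, 9.04 to 181. Il4-203 begins between the outer and the internal start, at 53618352, and had 0 to 22.0.

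Il4-201 had 0 to 29.8 estimated reads in a library, and 0 in 3 of the 12 libraries. Its TPM was 0 to 2.20, so the place of Il4 in the order of levels rests on the other Il4 transcripts. Over all libraries Il4-204 and Il4-202 held 96.7% of 6574 Il4 reads, and Il4-201 held 1.51%. Per library the 2 transcripts of the internal first exon were assigned 89.1% to 99.01% of Il4 reads. Lowest were knockout-labelled replicate 3 of 8 weeks, with 90.7% of 197 reads, and WT replicate 2 of 8 weeks, with 89.1% of 122 reads. In these 2 libraries Il4-203 was assigned 9.33% and 9.45%, and Il4-201 0% and 1.42%. The share of Il4-204 and Il4-202 together averaged 96.7 ± 3.42% in knockout-labelled cells and 97.5 ± 2.47% in WT cells at 20 weeks. At 8 weeks it averaged 94.7 ± 3.66% in knockout-labelled cells and 94.9 ± 4.96% in WT cells (SD, n = 3 each). Within each time the means of the genotypes differed by less than the SD of either group, and the ranges of the 4 groups overlapped.

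The assignment can be told from the sequences, since the estimates rest on 20-base words. Of the 571 such words of Il4-201, 193 occur in no other transcript of GENCODE M21. The pair that begins at the internal exon has 502 words that are in neither of the other Il4 transcripts nor in another gene. The 132 coding bases in the first exon of Il4-201 share 0 words with Il4-204, whose annotated start codon lies at 53613951, in a later exon. The files hold no splice junction or read positions, so whether the reads of the internal exon came from spliced or unspliced RNA was not tested. Those 132 bases (GRCm38, chr11:53618475-53618606, minus strand) are shown because they carry the annotated start codon, in capitals, that the abundant transcripts lack.
Il4-201 first coding exon: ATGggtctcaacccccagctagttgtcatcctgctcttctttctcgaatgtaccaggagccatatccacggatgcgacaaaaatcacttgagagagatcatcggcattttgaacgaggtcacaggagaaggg

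Each start has an upstream window in RefSeq's table for GRCm38.p6, in which 8 of the 9 genes had an entry. The 250 bases before each Il4 start, and those before the starts of Il13 and Il5, are shown because they differ in the motifs of factors known at this locus. Capitals mark GATA (the core bound by GATA factors) and GGAAA (the core bound by NFAT), read on both strands, so that TATC and TTTCC are the same motifs on the opposite strand; the motifs do not overlap in these windows. TGANTCA, the AP-1 motif, occurs in none of the 4. Of 32851 such windows of mouse genes, 53.6% held GATA, 55.6% held GGAAA and 6.75% held TGANTCA.
Il4 internal start (chr11:53617339-53617588, minus strand): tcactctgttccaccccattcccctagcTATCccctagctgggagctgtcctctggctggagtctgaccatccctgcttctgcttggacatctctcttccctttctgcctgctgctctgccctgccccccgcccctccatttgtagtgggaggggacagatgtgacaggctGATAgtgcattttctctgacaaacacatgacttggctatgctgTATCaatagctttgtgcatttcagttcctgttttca
Il4 outer start (chr11:53618666-53618915, minus strand): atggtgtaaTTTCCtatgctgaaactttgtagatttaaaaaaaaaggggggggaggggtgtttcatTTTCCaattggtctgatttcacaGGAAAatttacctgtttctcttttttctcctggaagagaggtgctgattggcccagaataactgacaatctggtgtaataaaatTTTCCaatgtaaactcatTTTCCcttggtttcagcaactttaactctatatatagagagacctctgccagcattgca
Il13 (chr11:53634703-53634952, minus strand): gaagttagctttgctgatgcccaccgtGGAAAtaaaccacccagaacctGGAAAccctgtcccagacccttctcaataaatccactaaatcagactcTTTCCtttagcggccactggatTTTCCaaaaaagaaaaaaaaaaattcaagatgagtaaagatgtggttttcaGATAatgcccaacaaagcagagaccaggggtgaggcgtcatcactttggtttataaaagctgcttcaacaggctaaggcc
Il5 (chr11:53720544-53720793, plus strand): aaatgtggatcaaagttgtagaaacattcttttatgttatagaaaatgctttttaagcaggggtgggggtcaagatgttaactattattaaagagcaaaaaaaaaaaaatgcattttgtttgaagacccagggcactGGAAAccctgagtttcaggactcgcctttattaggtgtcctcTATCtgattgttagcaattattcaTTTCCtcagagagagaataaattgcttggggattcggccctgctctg
The window before the internal Il4 start held 3 GATA matches and 0 of GGAAA, and that before the outer start held 0 GATA and 5 GGAAA matches. The Il13 window held 1 GATA and 4 GGAAA matches, and the Il5 window 1 GATA and 2 GGAAA matches. A match is a run of letters and not a measured site.

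**Figure D2:**
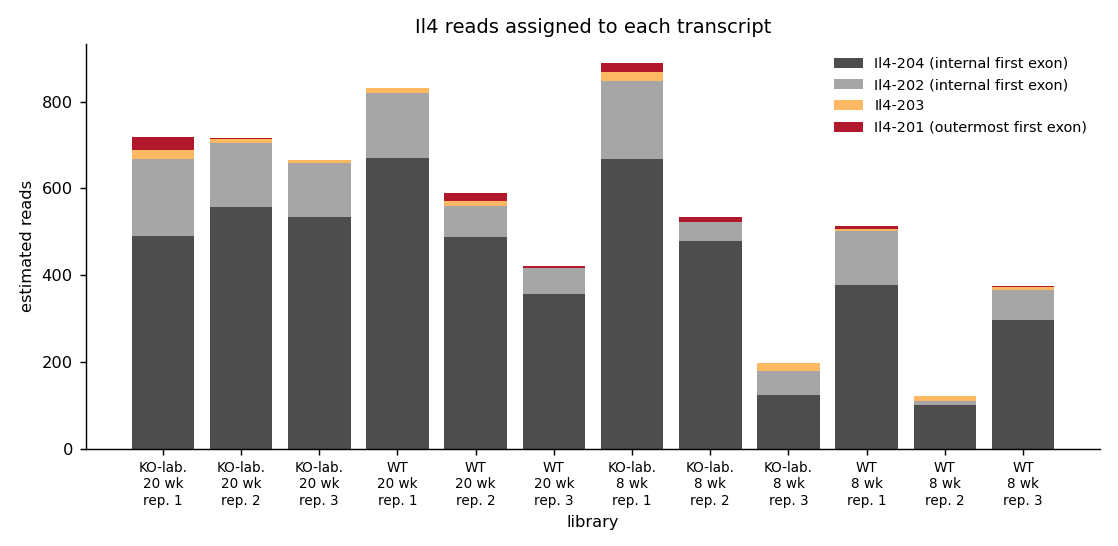
Estimated reads assigned to each of the 4 Il4 transcripts, stacked per library, 3 libraries per group. The transcripts of the internal first exon make up 89.1% to 99.01% of each bar, and Il4-201 has at most 29.8 reads.

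The design asks whether ILC2s that developed without Rag1 differ from WT ILC2s of the same hosts. Between genotypes, 0 of the 7 tested cytokine genes were called by edgeR at a Benjamini-Hochberg adjusted p under 0.05 at 20 weeks, where 0.0554% of all 14431 genes were called. The same count was 0 at 8 weeks, where 0.201% of genes were called, and 0 for the average of both times, where 0.222% were called. DESeq2 and limma-voom also called 0 of the 7 in each of these comparisons. At an unadjusted p under 0.05, edgeR gave 0 of the 7 at 20 weeks, 2 at 8 weeks (Il13 and Il2) and 1 for the average (Il2), against 2.08%, 3.62% and 3.71% of all genes.

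Il5 was the gene whose genotype difference was bounded most closely. At 20 weeks it had 177, 147 and 151 CPM in knockout-labelled cells, against 156, 141 and 140.0 CPM in WT cells. At 8 weeks it had 178, 195 and 118 CPM in knockout-labelled cells, against 183, 148 and 152 CPM in WT cells. The groups overlapped at both times. Averaged over both times the log2 fold change of Il5 came to 0.07 with a 95% interval of -0.23 to 0.38 (SE 0.14, adjusted p = 1 by edgeR).

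Il2 had the largest genotype estimate among the 7 genes at both times, at very low levels. At 8 weeks it had 0.629, 0.791 and 0.241 CPM in knockout-labelled cells, from 17.5, 16.4 and 2.96 estimated reads, against 1.56, 2.66 and 2.26 CPM in WT cells. The groups of that time did not overlap, as for 2.65% of all genes in this direction. At 20 weeks Il2 had 0.563, 1.80 and 1.00 CPM in knockout-labelled cells, against 0.892, 2.47 and 3.75 CPM in WT cells, and these overlapped. Averaged over both times, the Il2 log2 fold change came to -1.48 (SE 0.45, unadjusted p = 0.00604, adjusted p = 0.745 by edgeR), and that at 8 weeks -1.91 (SE 0.65, adjusted p = 1), so neither passed the test. Without the 2 libraries that stood apart, the estimate at 8 weeks was -1.42 (unadjusted p = 0.0814 by edgeR). Of 10 tested T cell markers, 8 had negative genotype estimates at 20 weeks and 7 at 8 weeks, with 0 called. At an unadjusted p under 0.05 by edgeR, 1 was lower at 20 weeks, 1 at 8 weeks and 2 for the average. The shares of all genes were 2.08%, 3.62% and 3.71%. Cd3e lay at 0.0683 to 0.409 CPM in knockout-labelled cells against 0.732 to 3.76 CPM in WT cells at 20 weeks. These groups did not overlap, as for 6.1% of all genes in this direction. At 8 weeks Cd3e lay at 0 to 0.293 against 0 to 1.93 CPM. WT replicate 2 of 8 weeks, which stood apart, had 2.66 CPM of Il2 and 0 of Cd3e. Cd28 was highest, at 14.5 CPM, in knockout-labelled replicate 3 of 8 weeks, which also stood apart and where Il2 was lowest. The 11 T cell markers, mostly Trbc1 and Trbc2, summed to 637 to 801 CPM in knockout-labelled cells against 800 to 925 CPM in WT cells at 20 weeks. At 8 weeks they summed to 512 to 876 against 804 to 887 CPM. Their part in the Il2 values was not tested.

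Il13 had opposite signs of estimate at the 2 times. At 20 weeks it had 9.59, 8.08 and 7.09 CPM in knockout-labelled cells, against 10.1, 11.3 and 10.7 CPM in WT cells, so the 3 knockout-labelled libraries lay lowest, as for 6.1% of all genes. At 8 weeks it had 36.3, 22.5 and 12.8 CPM in knockout-labelled cells, against 17.0, 11.4 and 14.4 CPM in WT cells, and the groups overlapped. The log2 fold changes were -0.37 (SE 0.32) at 20 weeks and 0.74 (SE 0.32) at 8 weeks, with adjusted p = 1 by edgeR in both. The estimate at 8 weeks was 0.29 without knockout-labelled replicate 1 of that time and 1.04 without replicate 3. The interaction, the test of the difference itself, had a log2 value of -1.11 (SE 0.46, unadjusted p = 0.0315, adjusted p = 1 by edgeR). Leaving out replicate 1 of the knockout-labelled cells at 8 weeks brought it to -0.67, and leaving out replicate 3 to -1.40. The interaction called 0 of the 7 genes and 0.097% of all genes, with 1 of the 7 at an unadjusted p under 0.05, as for 2.18% of all genes.

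The other members did not pass the test between genotypes, and their groups overlapped at both times. Il4 had 20.7, 21.0 and 28.3 CPM in knockout-labelled and 26.8, 22.8 and 30.4 CPM in WT cells at 20 weeks, and 31.9, 25.7 and 16.1 CPM in knockout-labelled and 22.5, 12.1 and 22.9 CPM in WT cells at 8 weeks. Il6 had 27.6, 30.8 and 38.4 CPM in knockout-labelled and 26.3, 28.8 and 37.3 CPM in WT cells at 20 weeks, and 33.1, 31.6 and 20.6 CPM in knockout-labelled and 27.0, 14.8 and 38.5 CPM in WT cells at 8 weeks. In both genes the lowest values of 8 weeks were those of the 2 libraries that stood apart. The averaged log2 fold changes were 0.08 (SE 0.21) for Il4, 0.07 (SE 0.22) for Il6, -0.27 (SE 0.26) for Csf2 and -0.13 (SE 0.65) for Il10, each with adjusted p = 1 by edgeR. Their 95% intervals reached from -0.37 to 0.54 for Il4, from -0.41 to 0.56 for Il6, from -0.83 to 0.30 for Csf2 and from -1.55 to 1.28 for Il10. At 20 weeks Il10 had 3.06, 0.43 and 0.267 CPM in knockout-labelled cells, against 2.51, 1.84 and 0.417 CPM in WT cells, and at 8 weeks 0.454, 1.66 and 2.52 CPM in knockout-labelled cells, against 0.898, 1.33 and 1.97 CPM in WT cells. For Csf2 at 8 weeks the estimate was -0.54 on the log2 scale (SE 0.37, adjusted p = 1 by edgeR), and single libraries moved it. It was -0.96 (unadjusted p = 0.0265 by edgeR) without knockout-labelled replicate 1, -0.19 without knockout-labelled replicate 3 and -0.24 without WT replicate 1. The Il10 groups overlapped throughout, and the Il10 interval leaves room for changes of more than 1 log2 unit in either direction.

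**Figure D3:**
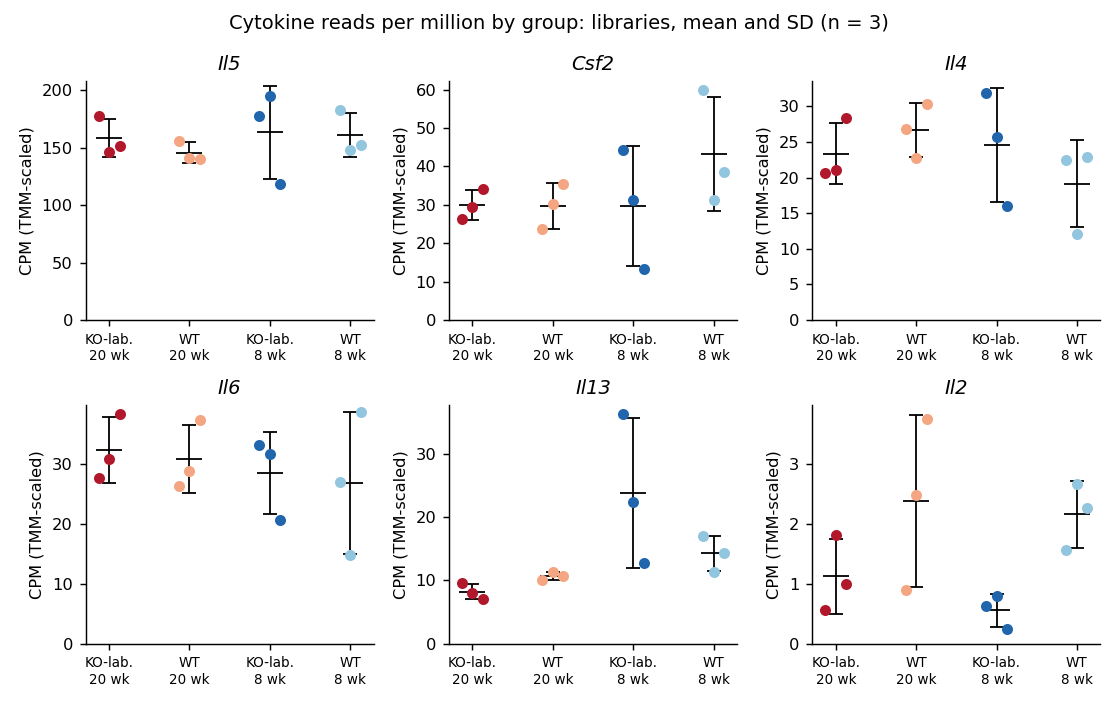
TMM-scaled CPM of 6 cytokine genes in each group; points are libraries, and the bars give the mean and SD (n = 3). Il13 is at 7.09 to 11.3 CPM in the 20-week libraries and at 11.4 to 36.3 CPM in the 8-week libraries, while the Il5 values of all groups overlap.

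Time after transplant was the second comparison, 20 against 8 weeks within each genotype. In knockout-labelled cells edgeR called 0 of the 7 genes, where 0.0624% of all genes were called, and in WT cells 0 of the 7, where 0.513% were called. At an unadjusted p under 0.05 it gave 1 of the 7 in knockout-labelled cells (Il13) and 0 in WT cells, against 8.33% and 13.3% of all genes. DESeq2 called 1 of the 7, Il13, in knockout-labelled cells and 0 in WT cells, where it called 150 and 498 of all genes. Limma-voom called 0 of the 7 in both. The labels give no harvest or sequencing dates, so an effect of time cannot be told apart from one of batch.

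Il13 had the largest estimate with time in knockout-labelled cells, whereas in WT cells the estimates of Csf2 (-0.54, SE 0.37) and Il4 (0.47, SE 0.30) were larger in size than that of Il13, and 0 of these 3 passed there. In knockout-labelled cells it averaged 8.25 ± 1.25 CPM at 20 weeks and 23.8 ± 11.8 CPM at 8 weeks, and in WT cells 10.7 ± 0.61 CPM at 20 weeks and 14.3 ± 2.80 CPM at 8 weeks (SD, n = 3 each). All 6 libraries of 20 weeks, at 7.09 to 11.3 CPM, lay below all 6 of 8 weeks, at 11.4 to 36.3 CPM, as for 2.47% of all genes. Within a genotype the times did not overlap either, as for 8.15% of all genes in this direction in knockout-labelled cells and 9.04% in WT cells. The gap between the highest of 20 weeks and the lowest of 8 weeks was small, and the times overlapped when CPM were scaled by library size alone. In knockout-labelled cells the log2 fold change was -1.53 (SE 0.33, unadjusted p = 0.000503, adjusted p = 0.215 by edgeR). Without replicate 3 of the knockout-labelled cells at 8 weeks, which stood apart, the value became -1.83 (adjusted p = 0.0225 by edgeR), and DESeq2 gave -1.54 (adjusted p = 0.00333). Over 21 other settings the value lay between -1.83 and -1.10 and the adjusted p between 0.00333 and 0.776. In WT cells it was -0.42 (SE 0.32, adjusted p = 0.619).

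Averaged over both genotypes, a comparison added after the data were seen, Il13 was lower at 20 than at 8 weeks by edgeR (log2 fold change -0.98, SE 0.23, adjusted p = 0.0439). That made it 1 of the 7 genes called, where 2.9% of all genes were called and 1.93% were called lower; 18.6% had an unadjusted p under 0.05. The adjusted p crossed the threshold in 13 of 20 other settings, between 0.00208 and 0.113, with log2 fold changes from -1.19 to -0.77. Leaving out any 1 of 9 of the 12 libraries ended the call. Those whose removal kept it were knockout-labelled replicate 3 and WT replicates 2 and 3 of 8 weeks. Within the libraries whose file headers record 8 threads, Il13 lay at 10.1 to 11.3 CPM at 20 weeks (n = 2) and 11.4 to 36.3 CPM at 8 weeks (n = 4). Within those of 24 threads it lay at 7.09 to 10.7 CPM at 20 weeks (n = 4) and 14.4 to 22.5 CPM at 8 weeks (n = 2).

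Ratios within a library do not depend on how libraries are scaled to each other. The Il4 to Il13 ratio of TPM was 4.53, 5.41 and 8.27 in knockout-labelled cells and 5.53, 4.17 and 5.87 in WT cells at 20 weeks. At 8 weeks it was 1.83, 2.35 and 2.67 in knockout-labelled cells and 2.76, 2.19 and 3.30 in WT cells. The ratios of 20 weeks all lay above those of 8 weeks. The Il13 to Il5 ratio was 0.0693, 0.0705 and 0.0600 in knockout-labelled cells against 0.0824, 0.102 and 0.0976 in WT cells at 20 weeks. At 8 weeks it was 0.262, 0.147 and 0.138 in knockout-labelled cells against 0.119, 0.0988 and 0.121 in WT cells. The knockout-labelled libraries were thus the lowest of the 12 at 20 weeks and the highest at 8 weeks by this ratio. Both of these ratios hold Il13, and the Il4 values are sums over all Il4 transcripts. The Il4 to Il6 ratio overlapped between times, at 1.28 to 1.90 at 20 weeks and 1.11 to 1.81 at 8 weeks. So did the Csf2 to Il5 ratio, at 0.29 to 0.49 and 0.22 to 0.64. How many gene pairs part in such ways was not counted, and no test was run on ratios.

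Il5 did not pass the test with time, with log2 fold changes of -0.04 (SE 0.20) in knockout-labelled cells and -0.14 (SE 0.20) in WT cells. Csf2 had 26.4, 29.3 and 34 CPM in knockout-labelled and 23.6, 30.2 and 35.4 CPM in WT cells at 20 weeks. At 8 weeks it had 44.4, 31.3 and 13.3 CPM in knockout-labelled and 59.9, 31.1 and 38.6 CPM in WT cells. The 8-week libraries of Csf2 thus spread more widely than those of 20 weeks and enclosed them. Csf2, Il4, Il6, Il2 and Il10 did not pass the test with time in either genotype, with adjusted p of 0.531 to 0.999 by edgeR. Averaged over genotypes, the 95% intervals of the log2 fold change were -0.40 to 0.21 for Il5, -0.26 to 0.66 for Il4, -0.30 to 0.67 for Il6 and -0.84 to 0.30 for Csf2.

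**Figure D4:**
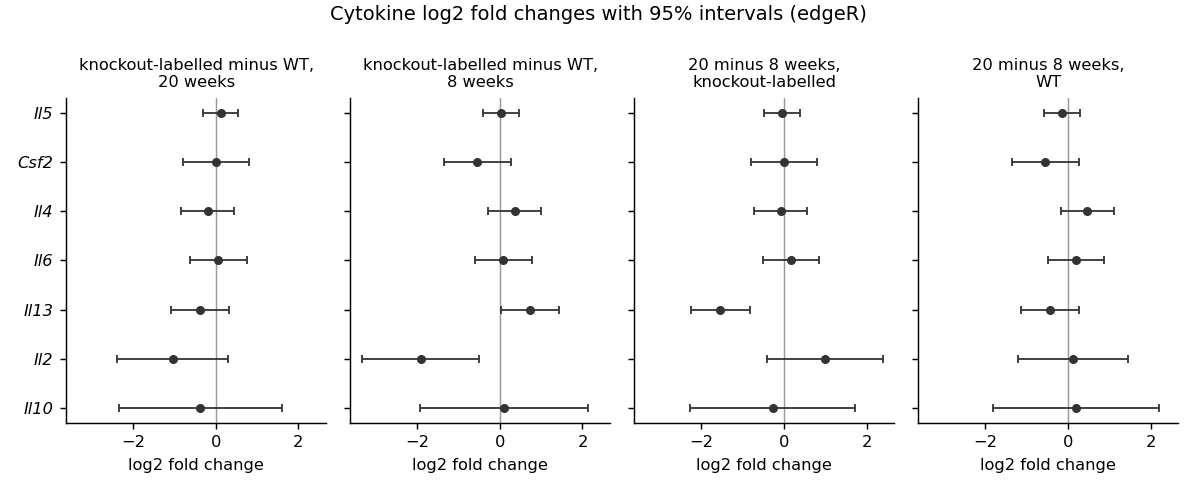
Log2 fold changes of the 7 tested cytokine genes with 95% intervals from edgeR: knockout-labelled minus WT at 20 and at 8 weeks, and 20 minus 8 weeks in each genotype. Only Il13 and Il2 have an interval that leaves out 0 in any panel, and 0 of the 7 genes passed the adjusted test in these 4 comparisons.

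The genes around and upstream of these cytokines were read from lists chosen with earlier results of these data known. Of 28 tested regulators of the type 2 locus, 1 was called between genotypes averaged over both times and 27 did not pass. Among all genes 0.222% were called, and the list median was 0.03 on the log2 scale against 0.01 for all genes. The gene called was Ets1, a transcription factor of lymphocytes, at 2307, 1829 and 1476 CPM in knockout-labelled against 944, 1138 and 945 CPM in WT cells at 20 weeks. The 8-week values were 1209, 2119 and 5852 CPM in knockout-labelled cells, the last in the library that stood apart, against 178, 181 and 185 CPM in WT cells. The Ets1 change averaged over times was 2.48 on the log2 scale (SE 0.32, adjusted p = 0.004 by edgeR). Gata3, the lineage factor that acts on the type 2 locus, was not called in any comparison.

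Averaged over genotypes, 1 of the 28 regulators was higher at 20 than at 8 weeks and 2 were lower, where 2.9% of all genes were called. At an unadjusted p under 0.05 by edgeR, 5 were higher and 3 lower, against 18.6% of all genes. Irf4, a factor of lymphocyte activation, was higher (log2 fold change 0.79, SE 0.16, adjusted p = 0.0256), and Bhlhe40, a factor known to promote cytokine genes in T helper cells, was lower (-0.81, SE 0.12, adjusted p = 0.0054, all by edgeR). The AP-1 subunit gene Jun was lower as well (-1.01, SE 0.18, adjusted p = 0.0187 by edgeR). The list median was 0.03 against 0.02 for all genes. In WT cells alone Ets1 was higher (2.47, adjusted p = 0.0344) and Bhlhe40 lower (-0.88, adjusted p = 0.0383) at 20 than at 8 weeks by edgeR. In that comparison 0.513% of all genes were called. At an unadjusted p under 0.05, 7 of the 28 were higher and 3 lower there, against 13.3% of all genes. In knockout-labelled cells alone 0 of the 28 were called, with 3 at an unadjusted p under 0.05, against 8.33% of all genes.

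Immediate early genes, which are transcribed within a short time of cell stimulation, moved in the same comparison as Il13. Of 14 tested, 8 were lower at 20 than at 8 weeks averaged over genotypes and 0 were higher. Among all genes 2.9% were called and 1.93% were called lower. The list median was -1.51 on the log2 scale, against 0.02 for all genes. Fos, an AP-1 subunit gene, averaged 207 ± 23.2 CPM in knockout-labelled and 215 ± 13.97 CPM in WT cells at 20 weeks, against 817 ± 275 CPM in knockout-labelled and 1050.0 ± 159 CPM in WT cells at 8 weeks (averaged log2 fold change -2.14, SE 0.18, adjusted p = 0.000101 by edgeR). Nr4a1 (-3.07, SE 0.27, adjusted p = 0.000127) and Nr4a2 (-4.42, SE 0.38, adjusted p = 0.000101), genes of orphan nuclear receptors, were lower, as was the phosphatase gene Dusp1 (-1.96, SE 0.16, adjusted p = 0.000101). Egr1, Fosb and Dusp2 were lower, by log2 fold changes of -2.16, -1.64 and -1.37. Atf3 was called too, at 0 reads in the knockout-labelled libraries of 20 weeks, so no fold is given. The summed CPM of the list was 654.2 to 703.1 in knockout-labelled and 629.9 to 714.2 in WT cells at 20 weeks, against 1206 to 1936 and 1685 to 2133 at 8 weeks. Its part in the Il13 values was not tested.

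Other secreted products also differed with time. Of 17 tested, 4 were lower at 20 than at 8 weeks averaged over genotypes and 0 were higher, where 1.93% of all genes were called lower. The list median was -0.03, against 0.02 for all genes. The lower ones were Areg, the gene of the epithelial growth factor amphiregulin (log2 fold change -1.57, SE 0.28, adjusted p = 0.0163), the chemokine genes Cxcl2 (-1.84, SE 0.31, adjusted p = 0.0127) and Ccl5 (-1.21, SE 0.30, adjusted p = 0.0497), and Il17a, all by edgeR. Il17a reached 1.42 CPM at most. Of 13 tested neighbours of the chromosome 11 cytokine genes, 1 was called, against 2.9% of all genes. It was Uqcrq, a respiratory chain subunit gene (-1.04, SE 0.18, adjusted p = 0.0152 by edgeR). Of 13 tested receptor genes for these cytokines, 13 genes of inducing signals such as Il1rl1, and 12 regulators of cytokine mRNA stability, 0 were called by edgeR in this comparison. At an unadjusted p under 0.05 there were 1 of 13, 3 of 13 and 4 of 12, against 18.6% of all genes. In the marker list of B cells, Cd79b was lower (-0.77, SE 0.15, adjusted p = 0.024 by edgeR); the 7 B cell markers summed to 163 to 198 CPM in knockout-labelled and 204 to 318 CPM in WT cells at 20 weeks, and to 189 to 573 and 171 to 380.0 CPM at 8 weeks. Their part in the values above was not tested.

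Covariation of levels between libraries was examined for the 5 genes with at least 10 estimated reads in every library: Il4, Il5, Il13, Il6 and Csf2. Across 12 libraries, 1 of 10 pairs passed a two-sided permutation test of Pearson's r adjusted over the 10 pairs. That test treats the 12 libraries as independent, although same-numbered libraries of the 2 genotypes may share hosts. Il4 and Il6, which lie on different chromosomes, had r = 0.87 (permutation p = 0.00074, adjusted p = 0.0074) and Spearman's rho = 0.70 (permutation p = 0.0137, adjusted p = 0.137). Without the 2 libraries farthest from the median of Il4, which are the 2 that stood apart, r was 0.46 (n = 10, permutation p = 0.177), so the relation of the levels rests on those libraries. As deviations from group means, r was 0.90 over 12 libraries. It was 0.77 when the same 2 were left out of the correlation but kept in the group means. That value therefore cannot show the relation without them. Il4 lay at 16.1 CPM in knockout-labelled replicate 3 and 12.1 CPM in WT replicate 2 of 8 weeks, against 20.7 to 31.9 CPM in the other 10 libraries. Il6 lay at 20.6 CPM in that knockout-labelled library and 14.8 CPM in that WT library, against 26.3 to 38.5 CPM in the other 10. At 20 weeks r was 0.63 (n = 6, exact permutation p = 0.214) and at 8 weeks 0.90 (n = 6, exact permutation p = 0.0153; adjusted p = 0.104). Within the 6 libraries of 8 threads r was 0.96 (exact permutation adjusted p = 0.0694) and within the 6 of 24 threads 0.68 (adjusted p = 0.497).

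The genes of the shared chromosome 11 cluster did not pass that test with each other. Il4 and Il13, with 12654 bases between them, had r = 0.25 (rho = 0.10, permutation p = 0.425, adjusted p = 0.491). Il13 and Il5, 86091 bases apart, had r = 0.50 (rho = 0.43, permutation p = 0.0954, adjusted p = 0.318). Il5 and Csf2, 522164 bases apart, had r = 0.63 (rho = 0.42, permutation p = 0.0296, adjusted p = 0.148). The remaining 6 pairs had r of 0.06 to 0.40, and 0 of the 6 passed. These values mix differences between groups with covariation inside them. As deviations of each library from its group mean, r was 0.68 for Il4 and Il13, 0.77 for Il13 and Il5, 0.70 for Il5 and Csf2, 0.86 for Il13 and Csf2 and 0.82 for Il4 and Csf2. Each is larger than the value from the levels. Without the 2 libraries farthest from the median of the first gene of a pair these became 0.33 for Il4 and Il13, 0.70 for Il5 and Il13, 0.42 for Il5 and Csf2, 0.50 for Il13 and Csf2 and 0.65 for Il4 and Csf2. The group means still held those 2 libraries, so these values cannot show the relations without them. Deviations within a group sum to 0 and are not independent, so they are given as a description. Within the 6 libraries of 8 weeks, Il4 and Il13 had r = 0.88 (exact permutation p = 0.0208, adjusted p = 0.104), and within the 6 of 20 weeks r = 0.00 (exact permutation p = 0.999).

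Among 14430 other tested genes, Il6 ranked 105 by r with Il4. The 3 genes most like Il4 over the 12 libraries were the ribosomal protein gene Rpl11 (r = 0.97), Gm6136 and Rpl36-ps12. Those most like Il6 were Uqcrh (r = 0.95), Rps3a1 and Rpl9-ps6. Rpl11 lay at 105 CPM in knockout-labelled replicate 3 and 59.1 CPM in WT replicate 2 of 8 weeks, against 176 to 325 CPM in the other 10 libraries, so the libraries that are low for Il4 are low for these genes as well. The genes most like Il5 were Zfp94 (r = 0.95), Nop56 and Shmt2, those most like Il13 were Apip (r = 0.91), Mrps18a and Fam20a, and those most like Csf2 were Ndufaf5 (r = 0.92), Ap1s1 and Cxcl10. These are the highest of many values over 12 points that share library preparation and depth, and they are given as a description; counts of ribosomal protein genes and of their near-identical pseudogenes are uncertain.

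**Figure D5:**
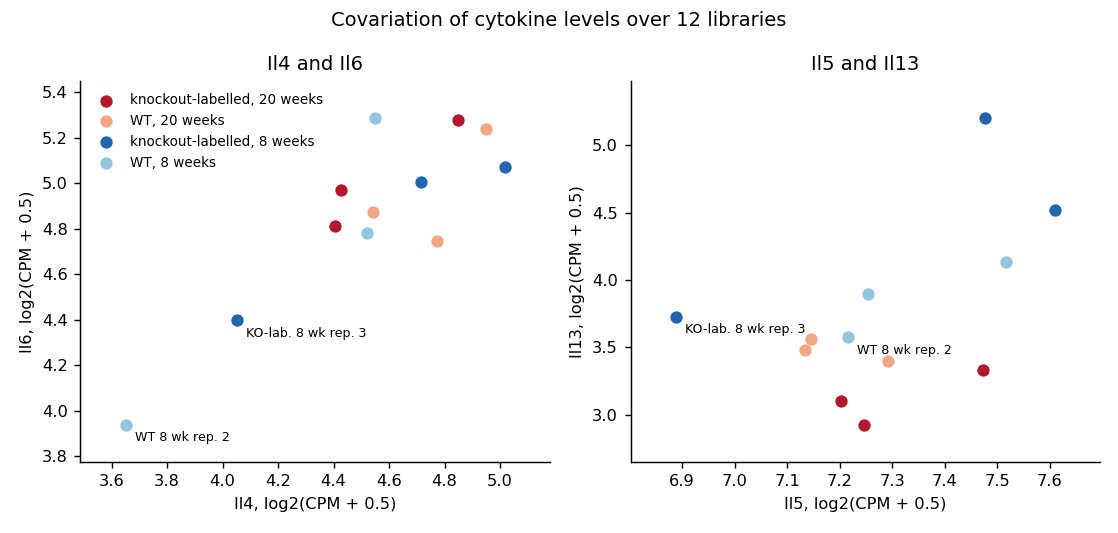
Levels as log2(CPM + 0.5) of Il4 against Il6 and of Il5 against Il13, 1 point per library, coloured by group. The Il4 and Il6 relation (r = 0.87) includes knockout-labelled replicate 3 and WT replicate 2 of 8 weeks as its lowest points, without which r is 0.46.

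The spread between libraries differed among the cytokine genes. The coefficient of variation of CPM over 12 libraries was 13.9% for Il5, 24.4% for Il4, 24.02% for Il6, 34.6% for Csf2 and 56.8% for Il13. It was 68.2% for Il2 and 66.3% for Il10, whose low reads add counting error. The highest library exceeded the lowest 1.65-fold for Il5 and 5.12-fold for Il13. Over all 12 libraries Il13 was thus the most variable of the 5 well counted genes, but this value includes the difference between its group means. Within groups Il13 was the most variable of the 5 in none of the 4. Its coefficient of variation was 15.2% in knockout-labelled and 5.74% in WT cells at 20 weeks, and 49.7% in knockout-labelled and 19.6% in WT cells at 8 weeks. The highest within a group were Il4 with 18.4% and Csf2 with 19.9% in knockout-labelled and WT cells at 20 weeks, and Csf2 with 52.7% and Il6 with 44.3% in knockout-labelled and WT cells at 8 weeks. Il5 had 10.4% in knockout-labelled and 6.23% in WT cells at 20 weeks, and 24.7% in knockout-labelled and 11.7% in WT cells at 8 weeks.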

How the data were processed

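The authors quantified transcripts with sailfish 0.6.3 from 20-base words against Ensembl release 76, per the file headers. Subread, featureCounts 1.4.5, STAR 2.0.4b and bcl2fastq also appear in the submitters' processing notes, without a role. Each deposited file gives, per transcript, an expected count (estimated reads), TPM (abundance per length, scaled to a fixed sum) and RPKM (reads per length and library total). The labels name polyadenylated RNA, yet their protocol removes ribosomal RNA and primes with random hexamers; strand is not stated, so reads of Csf2 and Il5 cannot be told from those of the antisense genes annotated across them. A method of this kind divides reads shared by transcripts by a model.

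Through their identifiers, 83739 of 86127 transcripts (97.2%) found a gene in GENCODE M21 (GRCm38), giving 29542 genes, and 2388 transcripts were left out. Expected counts were rounded, filtered with filterByExpr, scaled by trimmed mean of M-values (TMM) and fitted with the quasi-likelihood test of edgeR 4.0.16 (R 4.3.3) on 4 group means for 14431 genes, with Benjamini-Hochberg adjustment over all of them; the common biological coefficient of variation was 0.377. Of 7 comparisons, 1 was added after the data were seen: 20 against 8 weeks averaged over both genotypes. The members, the gene lists and the tests were chosen with earlier results of these data known. Genes named are the 9 members, list genes with an adjusted p under 0.05, ILC2 markers and the 3 genes nearest to each well counted member by r. Comparisons that share libraries are not independent. Levels per length were compared as log2(TPM + 0.1), and covariation as log2(CPM + 0.5) with 100000 permutations, or all orders for 6 libraries. Tests were tried on simulated data. Alternatives were DESeq2 1.42.0, limma-voom (limma 3.58.1), other scalings, no filter, length-scaled TPM counts, fewer libraries, a replicate block, and thread number as a covariate. Headers record 8 threads for 6 libraries and 24 for the other 6, with all 3 knockout-labelled libraries of 20 weeks at 24. PCR copies are not independent molecules, so floors reflect counting error alone. RPKM entered only as an alternative.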

Additional observations from a re-analysis of the deposited data

How the results depend on the processing

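The 7 tested members were refitted under 20 to 22 other settings per comparison. The count of members called stayed at 0 for the 3 genotype comparisons, the interaction and time in WT under every setting run. For time in knockout-labelled cells it was 0, and became 1 with DESeq2 and 1 without the 2 libraries that stood apart (Il13 in each); leaving out 1 library at a time it ranged from 0 to 1. For time averaged over genotypes it was 1, and became 0 when scaled by library size alone, 0 with no filter, 0 with length-scaled TPM counts and 0 with thread number as a covariate; leaving out 1 library it ranged from 0 to 1. Scaling by library size alone moved the median of all genes by up to 0.257 on the log2 scale in the time comparisons; relative to that median Il13 changed by -1.58 in knockout-labelled and -0.46 in WT cells. Of 1036 refitted member estimates, 88 changed sign, and 0 of the 296 whose estimate exceeded 0.5 in size did. Where the sign of an uncalled estimate is given, it is a description and not a result.

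The order of levels kept 5 of 8 neighbouring pairs past the threshold under every alternative run, 1 of them Il10 above Il9, which the zeros of Il9 fix, although Csf2 and Il4 changed places in 5 of 15 of them. For covariation, 1 of 10 pairs passed. The count was 7 with deviations from group means, which share 4 estimated means and are not freely exchangeable, so those p-values are too small. It was 0 within 20 weeks, 0 within 8 weeks, 0 without the 2 libraries that stood apart and 0 within libraries of 8 threads; leaving out 1 library it ranged from 0 to 1. Within libraries of 24 threads 1 pair passed, but it was Il6 and Csf2 (r = 0.95). The cause of these changes was not tested.

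DESeq2 called more genes than edgeR: 32 against 8, 75 against 29 and 76 against 32 for genotype at 20 weeks, at 8 weeks and averaged, 35 against 14 for the interaction, and 150 against 9, 498 against 74 and 1227 against 419 for time in knockout-labelled cells, in WT cells and averaged. With the replicate number as a replicate block, the members called stayed at 0 in the 3 genotype comparisons and the interaction, while all genes called were 4, 15, 19 and 9. Same-numbered libraries had deviations that correlated by 0.074 to 0.288, not over 0.1 in every pair, so the numbers were not taken as a pairing; each knockout-labelled library correlated best with its own number, a hint from the data. The block within each time was not run for the time comparisons, since the numbers are nested in time. Il9, Il3, Il2 and Il10 are limited by depth.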
